A study of Mus musculus with 12 samples.

Results

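Of the known regulators of hematopoietic stem cell (HSC) self-renewal, 9 were followed by name in the deposited gene expression table: *Mecom*, *Hlf*, *Meis1*, *Prdm16*, *Gata2*, *Ikzf2*, *Msi2*, *Myct1* and *Jmjd1c*. All 9 were found among its 53465 genes, and all 9 passed the filter on low counts in every comparison. RNA-seq was performed on LSKs sorted from mouse bone marrow, the Lin- Sca-1+ c-Kit+ fraction that holds HSCs together with multipotent progenitors. There were 4 groups of 3 libraries: *Tespa1*+/+ littermates and *Tespa1*-/- mice, each untreated or taken on day 9 of recovery from 5-fluorouracil (5-FU). This drug kills cycling cells and pushes surviving HSCs to divide. The mice were young adult males, and both genotypes were on a C57BL/6 background. The knockout allele is the germline allele of the B6.129S-Tespa1tm1Smoc strain, which is carried by every cell of the mouse and not by LSKs alone. The labels do not say whether a library came from 1 mouse or from a pool, so p-values measure the spread between these libraries, which may be partly technical.

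HSC self-renewal is maintained by a group of regulators, most of them transcription factors. Several, but not all, of them are highly expressed in stem cells and fall as cells differentiate. *Mecom* (Evi1) and *Prdm16* encode related zinc finger proteins with a PR domain, and both are needed to keep long-term HSCs. *Hlf* encodes a PAR bZIP factor that keeps HSCs quiescent, *Meis1* a TALE homeodomain partner of HOX proteins, *Gata2* a GATA factor needed for HSC emergence and survival, and *Ikzf2* the Ikaros family factor Helios. *Msi2* encodes Musashi-2, an RNA-binding protein that controls translation in stem cells. *Myct1* and *Jmjd1c*, which the study treats as c-Myc targets tied to HSC maintenance, encode a small membrane protein and a nuclear protein with a JmjC domain.

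Total counts ran from 22118154 to 28275079 per library with a median of 23401715, and the 9 genes were covered by 234 to 12927 counts in a library. A count of 3, taken as the detection limit for counting error, corresponds to 0.106 to 0.136 CPM on the uncorrected library totals. CPM is the share of a library's counts scaled to a fixed total, and the CPM values of genes given here are also corrected by TMM factors. *Tespa1* itself ran from 43.1 to 51.0 CPM in untreated *Tespa1*+/+ libraries and from 34.5 to 34.9 CPM in untreated *Tespa1*-/- libraries. After 5-FU it ran from 47.1 to 57.2 CPM and from 17.2 to 20.7 CPM, so reads over the gene were reduced but not absent in the libraries labelled as knockout. Both markers of the sort were present, with *Kit*, which encodes c-Kit, at a mean of 340 to 466 CPM and *Ly6a*, which encodes Sca-1, at 15.2 to 35.9 CPM across the 4 groups.

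Promoter sequences are shown for *Msi2*, *Myct1* and *Jmjd1c*, the 3 regulators outside the DNA-binding factors. The study places *Myct1* and *Jmjd1c* downstream of c-Myc, so the letters CACGTG, the canonical E-box that MYC proteins bind, were searched for beside 4 other motifs in windows of 300 bases, 250 before to 50 after each annotated start. The sequences are from RefSeq (GRCm38.p6), which had an entry for 8 of the 9 genes and not for *Ikzf2*. Each printed stretch runs from 250 bases before the annotated start to 20 bases after it, 5′ to 3′ on the gene's own strand, and capitals mark motif matches. The windows are chr11:88718258-88718527 on the minus strand for *Msi2*, chr10:5593478-5593747 on the plus strand for *Myct1* and chr10:67126838-67127107 on the plus strand for *Jmjd1c*.
Msi2: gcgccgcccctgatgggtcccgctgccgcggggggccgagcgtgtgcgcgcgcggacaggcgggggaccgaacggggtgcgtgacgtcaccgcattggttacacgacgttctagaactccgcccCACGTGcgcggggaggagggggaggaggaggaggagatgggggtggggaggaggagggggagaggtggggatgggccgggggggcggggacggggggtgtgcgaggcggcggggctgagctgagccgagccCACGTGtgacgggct
Myct1: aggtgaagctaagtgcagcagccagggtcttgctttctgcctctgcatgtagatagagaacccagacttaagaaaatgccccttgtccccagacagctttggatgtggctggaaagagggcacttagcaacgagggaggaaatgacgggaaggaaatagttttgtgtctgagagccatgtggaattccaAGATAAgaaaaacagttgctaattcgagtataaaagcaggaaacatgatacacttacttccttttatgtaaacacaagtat
Jmjd1c: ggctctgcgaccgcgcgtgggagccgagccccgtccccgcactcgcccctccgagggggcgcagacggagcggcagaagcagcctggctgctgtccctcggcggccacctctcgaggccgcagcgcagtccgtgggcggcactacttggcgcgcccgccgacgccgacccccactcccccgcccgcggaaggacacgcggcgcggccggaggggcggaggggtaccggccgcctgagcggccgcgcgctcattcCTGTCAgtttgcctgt
The *Msi2* stretch holds CACGTG at 2 places, whose first bases are at -126 and 6 relative to the start. The windows of the other RefSeq starts of *Msi2* overlap this one and cover the same 2 matches. CACGTG was not found in the windows of 300 bases of *Myct1* or *Jmjd1c*, and over all 32851 promoters of that length 7.15% hold it. The capitals in *Myct1* mark AGATAA, which erythroid and stem cell zinc finger factors of the *Gata2* family recognise and which is found in 11.2% of promoters. Those in *Jmjd1c* mark the reverse complement of TGACAG, a MEIS motif found in 19.2% of promoters. *Jmjd1c* has another RefSeq window, chr10:67185500-67185799, which is not printed and held no motif match. Both *Jmjd1c* windows lie inside the gene position given below, which begins at 67096125, and neither covers that first base. Of the motifs searched on both strands, CCGGAAGT (ETS, 3.89% of promoters) was found as its reverse complement in the *Meis1* promoter, from base -13. TTACGTAA, the PAR bZIP motif, is present in 0.119% of promoters and in none of the windows of the 8 genes. TGACAG was also found, reversed, in 1 of the 2 windows of *Mecom*. No motif was found in the windows of *Hlf*, *Prdm16* or *Gata2*. A match is a description of letters and not a measured binding site.

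The question of the first comparison was how the regulators differ between *Tespa1*-/- and *Tespa1*+/+ LSKs during regeneration. The study had already reported *Myct1* and *Jmjd1c* as lower in *Tespa1*-deficient cells after stress. All 9 genes were chosen with earlier results of these data known. Counts of the 9 set beside all genes are therefore a description and not independent support. At day 9 after 5-FU, 8 of the 9 were lower in *Tespa1*-/- LSKs at an adjusted p below 0.05, and *Gata2* was the exception. None was higher. Of all 17239 genes tested in this comparison, 5.78% were lower and 7.34% higher. The median log2 fold change was -0.865 over the 9 genes and -0.01 over all genes. The ranges of the 2 genotypes were apart for the same 8 genes, with the knockout lower, as they were for 15.9% of all genes.

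**Figure D1:**
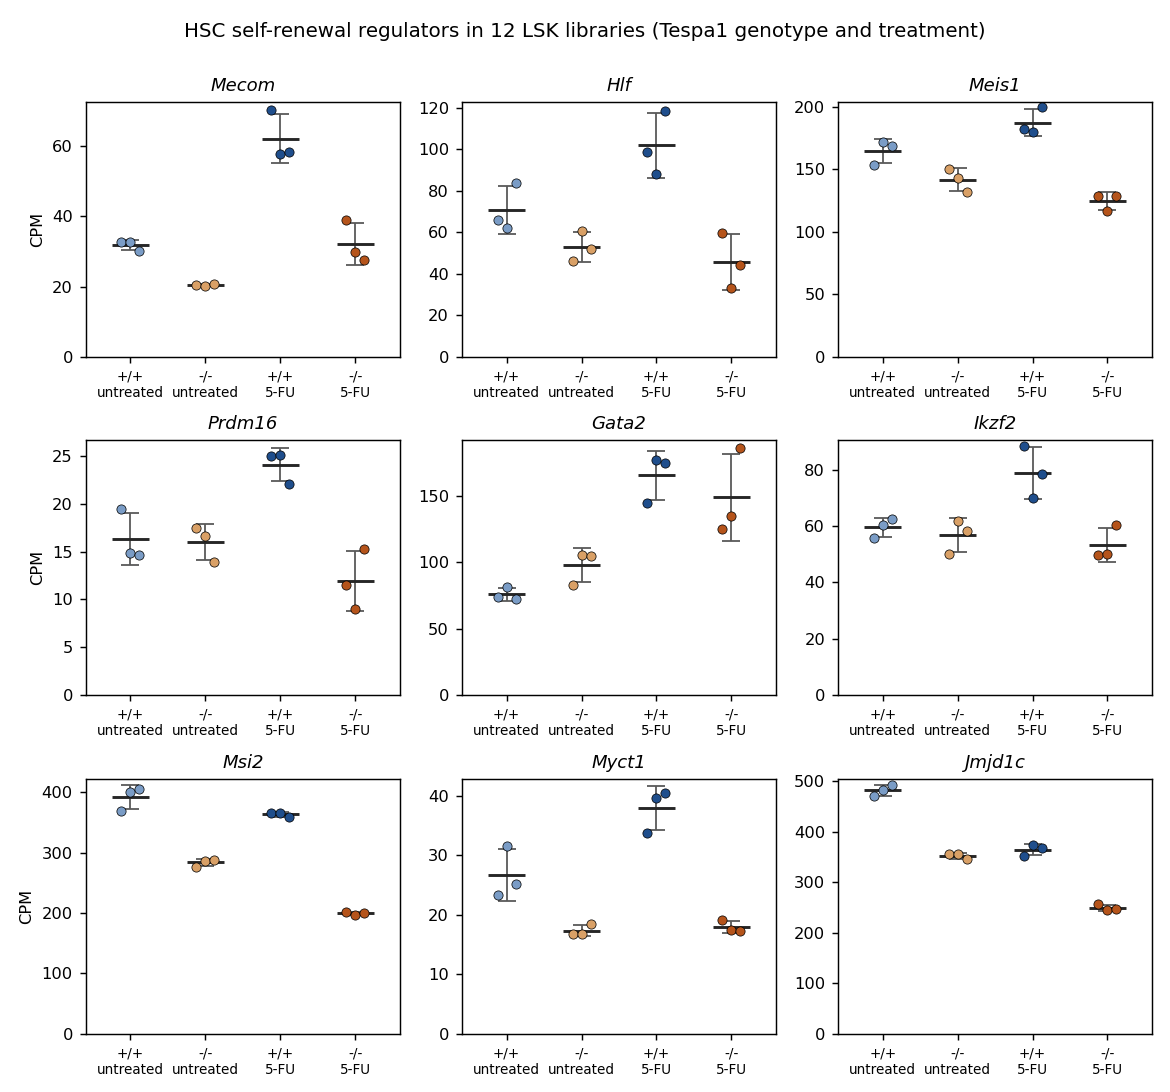
Level of each of the 9 regulators in CPM (y axis, linear, from 0) in the 4 groups (x axis, *Tespa1* genotype and treatment). Each point is 1 library, the horizontal line is the mean of 3 libraries and the bars are 1 SD. After 5-FU the points of the 2 genotypes are apart for every gene but *Gata2*.

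Among the transcription factors, *Hlf* was at 98.9, 87.9 and 118.6 CPM in the 3 *Tespa1*+/+ libraries after 5-FU and at 59.7, 32.9 and 44.0 CPM in the 3 *Tespa1*-/- libraries. The highest knockout library was below the lowest wild type library, although the knockout libraries themselves spread widely. This was a 2.23-fold lower level (log2 fold change -1.16 ± 0.20, SE, adjusted p = 0.00454 by the edgeR quasi-likelihood test). *Prdm16* was at 25.01, 25.13 and 22.1 CPM in *Tespa1*+/+ and at 11.5, 9.01 and 15.2 CPM in *Tespa1*-/-. Its groups were also apart, with a log2 fold change of -1.02 ± 0.20 (SE, adjusted p = 0.00922, edgeR). *Mecom*, its relative, gave 70.2, 57.7 and 58.4 CPM against 38.8, 30.0 and 27.6 CPM. The *Mecom* groups were apart (log2 fold change -0.95 ± 0.14, SE, adjusted p = 0.00249, edgeR).

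*Meis1* and *Ikzf2* were reduced to a smaller degree. *Meis1* was at 182.5, 179.5 and 199.9 CPM in *Tespa1*+/+ LSKs and at 128.9, 116.5 and 128.5 CPM in *Tespa1*-/- LSKs, a log2 fold change of -0.59 ± 0.069 (SE, adjusted p = 0.000632, edgeR). The within-group spread of *Meis1* was small beside this gap. *Ikzf2* was at 88.4, 69.9 and 78.4 CPM against 49.81, 49.96 and 60.3 CPM, a log2 fold change of -0.56 ± 0.11 (SE, adjusted p = 0.0112, edgeR). Its gap between groups was narrower, and without *Tespa1*-/- replicate 1 the adjusted p was 0.0513.

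*Gata2* did not follow the other 8. It was at 144.4, 177.1 and 175.0 CPM in *Tespa1*+/+ and at 125.3, 135.0 and 186.2 CPM in *Tespa1*-/- libraries after 5-FU, so the ranges overlapped and 1 knockout library was above all 3 wild type libraries. The log2 fold change was -0.15 with a 95% interval from -0.47 to 0.17 (adjusted p = 0.553, edgeR). That interval does not reach the estimate of any of the other 8 and leaves room for a smaller fall.

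The RNA-binding protein gene *Msi2* and the genes *Jmjd1c* and *Myct1* were lower too. *Msi2* was at 366.1, 365.9 and 358.5 CPM in *Tespa1*+/+ LSKs after 5-FU and at 201.3, 196.9 and 200.5 CPM in *Tespa1*-/- LSKs. Its coefficient of variation was 1.19% in each of those groups, and the log2 fold change of -0.86 ± 0.045 had the lowest adjusted p of the 9 (4.59e-06, edgeR). *Jmjd1c* was at 351.9, 374.3 and 368.6 CPM against 256.3, 244.7 and 246.7 CPM, a log2 fold change of -0.55 ± 0.048 (SE, adjusted p = 0.000119, edgeR). *Myct1* was at 33.7, 39.6 and 40.5 CPM against 19.1, 17.5 and 17.3 CPM (log2 fold change -1.08 ± 0.12, SE, adjusted p = 0.000558, edgeR).

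Other measurements moved with the genotype in the same libraries. Sort markers were lower in *Tespa1*-/- LSKs after 5-FU, *Kit* by a log2 fold change of -0.45 (adjusted p = 0.000221) and *Ly6a* by -1.24 (adjusted p = 0.0265). All 14 erythroid markers were higher, and their summed level was 889.3 to 934.9 CPM against 271.9 to 301.2 CPM. Of 16 neutrophil markers 13 were higher and 1 lower (*Padi4*, -0.68, named after its values were seen), with sums of 1231 to 1241 CPM against 84.2 to 102.4 CPM. *S100a9* and *Ngp*, which encode neutrophil granule and cytosol proteins, had mean levels of 314 and 249 CPM in these knockout libraries and 1.29 and 1.25 CPM in the wild type, and no neutrophil marker was at or under 3 counts in the knockout. Mast cell and basophil markers were higher for 7 of 11 (147.7 to 177.2 against 52.8 to 59.3 CPM) and mitotic genes for 11 of 12 (3642 to 3700 against 2507 to 2553 CPM). Genes standing for the lineages depleted in the sort were higher for 4 of 7 tested. Some neutrophil, erythroid, mast cell and basophil, and lineage markers passed the filter on low counts only through the treated knockout libraries. Those could only come out higher, so these counts are partly set by the filter. Megakaryocyte genes were higher for 3 and lower for 1 of 11, B lymphoid genes higher for 2 of 8, and endothelial genes lower for 1 of 8. The part of these shifts in the lower level of the 9 regulators was not tested. In bulk LSKs, fewer cells that express a gene and less RNA per cell cannot be told apart.

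In untreated LSKs the same question of genotype gave 4 of the 9. *Mecom*, *Msi2*, *Myct1* and *Jmjd1c* were lower in *Tespa1*-/- LSKs, none was higher, and of all 17055 genes tested 3.59% were lower and 1.64% higher. The median log2 fold change of the 9 was -0.405, against 0.007 over all genes. *Jmjd1c* was at 471.6, 482.3 and 493.1 CPM in *Tespa1*+/+ and at 355.9, 355.6 and 345.4 CPM in *Tespa1*-/- LSKs (log2 fold change -0.44 ± 0.042, SE, adjusted p = 0.00076, edgeR). *Msi2* was at 369.3, 400.8 and 406.2 CPM against 277.1, 286.4 and 287.8 CPM (log2 fold change -0.45 ± 0.055, SE, adjusted p = 0.00271, edgeR). In both genes the ranges of the genotypes were far apart before any drug was given.

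*Mecom* was at 32.7, 32.6 and 30.0 CPM in untreated *Tespa1*+/+ and at 20.5, 20.2 and 20.6 CPM in untreated *Tespa1*-/- LSKs (log2 fold change -0.62 ± 0.098, SE, adjusted p = 0.00951, edgeR). *Myct1* was at 23.4, 31.7 and 25.2 CPM against 16.7, 16.8 and 18.4 CPM (log2 fold change -0.62 ± 0.15, SE). The *Myct1* call was marginal, with an adjusted p of 0.0494 in edgeR, and it was lost in 9 of 13 alternative analyses, including 5 of the 6 that left out 1 library. The *Mecom* call was lost when *Tespa1*-/- replicate 1 (adjusted p = 0.0547) or replicate 2 (adjusted p = 0.0581) was left out.

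The remaining transcription factors did not pass the test before treatment. *Hlf* was at 66.03, 61.94 and 83.6 CPM against 45.9, 60.4 and 52.1 CPM (log2 fold change -0.40, adjusted p = 0.161, edgeR), with groups that did not overlap by a small margin. *Meis1* was at 153.2, 171.4 and 168.3 CPM against 150.4, 143.0 and 131.8 CPM (log2 fold change -0.20, adjusted p = 0.186, edgeR). *Prdm16* was at 19.4, 14.9 and 14.7 CPM against 17.5, 16.6 and 13.9 CPM, and *Ikzf2* at 55.7, 60.4 and 62.5 CPM against 50.1, 61.8 and 58.4 CPM. Both overlapped, with log2 fold changes of -0.01 (95% interval -0.38 to 0.35) and -0.06 (95% interval -0.28 to 0.17). *Gata2* pointed the other way at 73.8, 81.5 and 72.5 CPM against 83.0, 105.7 and 104.7 CPM, and every knockout library was above every wild type library (log2 fold change 0.38, adjusted p = 0.0866, edgeR). In the untreated libraries neutrophil markers summed to 56.5 to 84.9 CPM in *Tespa1*+/+ and 57.0 to 61.1 CPM in *Tespa1*-/- (1 of 7 lower, *Padi4*), erythroid markers to 157 to 177 and 188 to 199 CPM (2 of 12 higher), and mitotic genes to 2598 to 2665 and 2538 to 2600 CPM (0 of 12 called). Megakaryocyte markers summed to 73.9 to 86.5 and 110 to 116 CPM (1 of 10 higher), mast cell and basophil markers to 21.96 to 25.42 and 37.1 to 40.1 CPM (1 of 7 higher), and B lymphoid markers to 65.5 to 77.0 and 42.2 to 48.2 CPM (3 of 7 lower). Neither sort marker passed the test, and MPP markers were lower for 4 of 7. The part of these lists in the result was not tested. In this comparison 6 of the 9 had non-overlapping ranges with the knockout lower, against 14.1% of all genes, and *Gata2* with the knockout higher, against 11.4%.

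**Figure D2:**
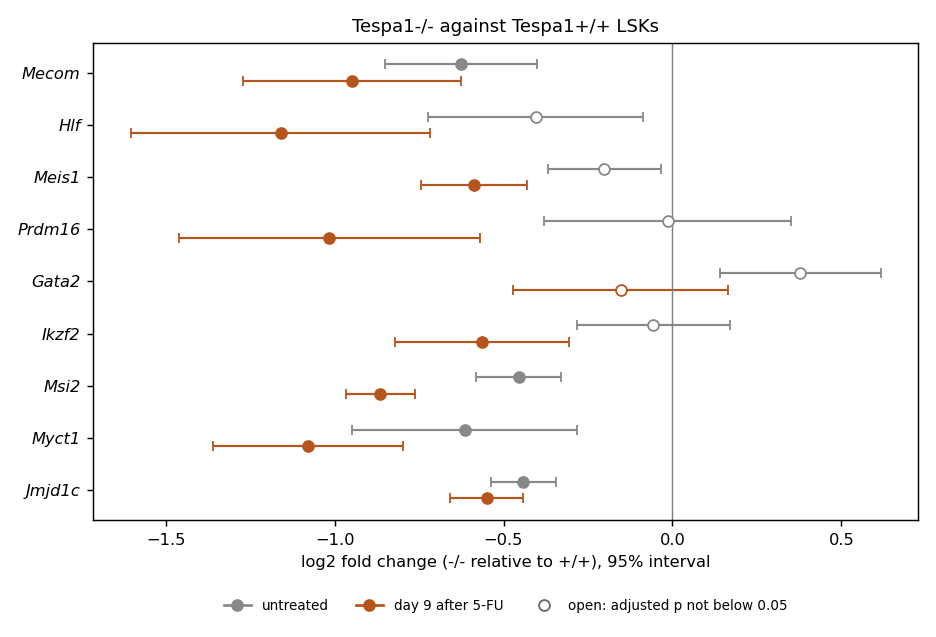
Log2 fold change of *Tespa1*-/- relative to *Tespa1*+/+ LSKs (x axis) for the 9 regulators (y axis), untreated (grey) and at day 9 after 5-FU (orange), with 95% intervals from the edgeR fit and filled points at an adjusted p below 0.05. After 5-FU 8 of the points are filled and below 0, and before treatment 4 are.

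The next question was how the regulators responded to 5-FU within each genotype. These comparisons use the same libraries as those above, so their values are given side by side and not as separate evidence. In *Tespa1*+/+ LSKs, *Gata2*, *Mecom* and *Ikzf2* were higher at day 9 than before treatment and *Jmjd1c* was lower. Of all 17002 genes, 3.77% were higher and 4.18% lower. Mean *Gata2* went from 75.9 ± 4.87 to 166 ± 18.3 CPM (SD, n = 3 in each group), a log2 fold change of 1.14 ± 0.096 (SE, adjusted p = 0.000151, edgeR). *Mecom* went from 31.77 ± 1.503 to 62.1 ± 7.01 CPM (SD, n = 3), a log2 fold change of 0.98 ± 0.11 (SE, adjusted p = 0.000762, edgeR). *Gata2* thus stood at 2.20-fold and *Mecom* at 1.98-fold of its untreated level, with no overlap between libraries.

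*Ikzf2* was higher by 0.42 on the log2 scale in *Tespa1*+/+ LSKs (adjusted p = 0.0447, edgeR), a call lost in 6 of 13 alternatives. *Hlf* (0.54, adjusted p = 0.0502), *Prdm16* (0.58, adjusted p = 0.0558) and *Myct1* (0.52, adjusted p = 0.0692) were each just outside the threshold in the same fit. Of 13 alternatives, *Hlf* passed in 7, *Prdm16* in 4 and *Myct1* in 3. Every treated library of these genes was nevertheless above every untreated one. *Meis1* (0.20, adjusted p = 0.145) had the same arrangement of libraries, so that 7 of the 9 had non-overlapping ranges with the treated group higher, against 13.2% of all genes. Those of the other two were apart with it lower, against 15.5%. *Msi2* was at a log2 fold change of -0.09 (95% interval -0.22 to 0.03), and *Jmjd1c* was lower by -0.39 ± 0.049 (SE, adjusted p = 0.00153, edgeR).

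In *Tespa1*-/- LSKs, *Mecom* and *Gata2* were again higher after 5-FU and *Msi2* and *Jmjd1c* were lower, while 10.7% of all 17228 genes were higher and 8.64% lower. *Mecom* went from 20.4 ± 0.220 to 32.1 ± 5.90 CPM (SD, n = 3; log2 fold change 0.65 ± 0.14, SE, adjusted p = 0.0108, edgeR) beside the 31.77 CPM of untreated *Tespa1*+/+ LSKs. *Gata2* went from 97.8 ± 12.9 to 149 ± 32.7 CPM (SD, n = 3; log2 fold change 0.60 ± 0.15, SE, adjusted p = 0.0227, edgeR). The *Gata2* call was lost when any one of the untreated *Tespa1*-/- libraries was left out, with adjusted p-values of 0.0819, 0.0515 and 0.053 without replicates 1, 2 and 3. *Msi2* fell from 284 ± 5.84 to 200 ± 2.38 CPM (SD, n = 3; log2 fold change -0.51 ± 0.042, SE, adjusted p = 6.56e-05, edgeR) and *Jmjd1c* from 352.3 ± 5.999 to 249 ± 6.20 CPM (SD, n = 3; log2 fold change -0.50 ± 0.042, SE, adjusted p = 7.02e-05, edgeR).

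Ranges were apart with the treated group higher for *Mecom* and *Gata2*, against 19.8% of all genes, and lower for 3 genes, against 18.8%. The other 5 did not pass the test in *Tespa1*-/- LSKs. Their log2 fold changes were -0.22 for *Hlf* (95% interval -0.66 to 0.23), -0.19 for *Meis1* (-0.35 to -0.03), -0.43 for *Prdm16* (-0.90 to 0.03), -0.09 for *Ikzf2* (-0.34 to 0.15) and 0.05 for *Myct1* (-0.22 to 0.32). For *Hlf*, *Meis1*, *Prdm16* and *Ikzf2* the sign was opposite to that in *Tespa1*+/+ LSKs, but whether the 2 responses differ is a question for the interaction below. HSC markers, a list of 9 genes, were higher after 5-FU for 5 and lower for none in *Tespa1*+/+, and higher for 5 and lower for 2 (*Fgd5* and *Robo4*, named after their values were seen) in *Tespa1*-/- LSKs, and MPP markers were lower for 5 of 7 in *Tespa1*+/+ and 7 of 7 in *Tespa1*-/- LSKs. Neutrophil markers were higher after 5-FU for 2 of 8 tested in *Tespa1*+/+ and 15 of 16 in *Tespa1*-/- LSKs, and mitotic genes for 0 and 10 of 12, with 1 lower in *Tespa1*+/+ (*Top2a*, -0.23). Erythroid markers were higher for 6 of 11 and 14 of 14, megakaryocyte markers for 5 of 10 and 10 of 10, mast cell and basophil markers for 6 of 10 and 11 of 11, and B lymphoid markers for 7 of 7 and 7 of 8. Their part in the responses of the 9 was not tested. The neutrophil markers tested in *Tespa1*-/- LSKs alone passed the filter on low counts only through the treated libraries, so they could only come out higher. Some erythroid and mast cell and basophil markers did the same, so the counts of the 2 genotypes are not like for like.

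**Figure D3:**
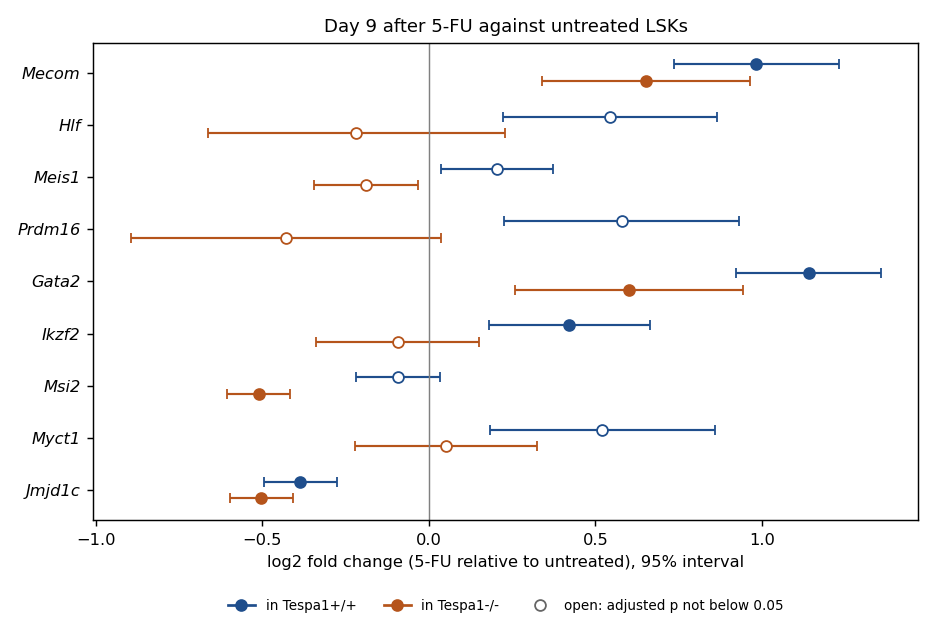
Log2 fold change at day 9 after 5-FU relative to untreated LSKs (x axis) for the 9 regulators (y axis) in *Tespa1*+/+ (blue) and *Tespa1*-/- (orange) mice, with 95% intervals and filled points at an adjusted p below 0.05. *Mecom* and *Gata2* are filled and above 0 in both genotypes, and the *Tespa1*-/- point lies to the left of the *Tespa1*+/+ point for all 9.

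A second reading counts calls whose fold also exceeded 1.5. With an unadjusted p below 0.05, the study's own rule, 6 of the 9 were lower in *Tespa1*-/- LSKs after 5-FU (*Mecom*, *Hlf*, *Prdm16*, *Msi2*, *Myct1* and *Meis1*), against 5.94% of all genes lower and 5.79% higher. *Meis1* was barely past the fold at 1.502. Its log2 fold change ran from -0.617 to -0.538 over the alternative fits, so its place in the count depends on the fit. *Ikzf2* (1.479-fold) and *Jmjd1c* (1.464-fold) were just under it. Before treatment 2 were lower (*Mecom* and *Myct1*), against 3.2% lower and 3.54% higher. With 5-FU, 2 were higher in each genotype (*Mecom* and *Gata2*) and none lower. The shares over all genes were 6.33% higher and 3.54% lower in *Tespa1*+/+ and 7.78% higher and 6.58% lower in *Tespa1*-/- LSKs. With an adjusted p in place of the unadjusted one, the counts of the 9 were the same. The background was then 3.03% lower and 3.95% higher for genotype after 5-FU, and 1.54% lower and 0.973% higher for genotype before it. For treatment it was 2.74% higher and 1.69% lower in *Tespa1*+/+, and 6% higher and 4.07% lower in *Tespa1*-/- LSKs.

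The difference between the 2 responses was tested as an interaction over all 12 libraries. *Msi2* and *Prdm16* passed the test, both with a more negative response in *Tespa1*-/- LSKs, as did 1.99% of all 18696 genes, while 3.02% had a more positive one. For *Msi2* the difference in response was -0.41 ± 0.067 on the log2 scale (SE, adjusted p = 0.00335, edgeR), with means of 392 and 364 CPM before and after 5-FU in *Tespa1*+/+ and of 284 and 200 CPM in *Tespa1*-/- libraries. For *Prdm16* it was -0.997 ± 0.264 (SE, adjusted p = 0.047, edgeR), with means of 16.3 and 24.1 CPM before and after 5-FU in *Tespa1*+/+ libraries, and treated *Tespa1*-/- libraries at 11.9 CPM. The *Prdm16* call was lost in 12 of 18 alternatives. With a fold above 1.5 also required, *Prdm16* alone of the 9 remained, against 1.55% of all genes.

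All 9 interaction estimates were negative, with a median of -0.459 against -0.021 over all genes. *Meis1* was nearest to the threshold among those that missed it (-0.38, adjusted p = 0.0539, edgeR), followed by *Ikzf2* (-0.50, adjusted p = 0.0931), *Hlf* (-0.75, adjusted p = 0.144), *Gata2* (-0.53, adjusted p = 0.159) and *Myct1* (-0.46, adjusted p = 0.201). *Mecom* (-0.32, 95% interval -0.70 to 0.06) and *Jmjd1c* (-0.10, 95% interval -0.23 to 0.03) had intervals that included 0. Of 18 alternative fits, *Meis1* passed in 4 (lowest adjusted p = 0.0117), *Hlf* in 2 (0.0345), *Ikzf2* in 1 (0.0384, DESeq2) and *Gata2* in 1 (0.0229, without treated *Tespa1*-/- replicate 3), and *Mecom*, *Myct1* and *Jmjd1c* in none. In the same test mitotic genes had a more positive response in *Tespa1*-/- LSKs for 8 of 12, erythroid markers for 7 of 14, neutrophil markers for 6 of 16, mast cell and basophil markers for 3 of 11 and B lymphoid markers for 3 of 8. It was more negative for 3 of 7 MPP markers, 2 of 9 HSC markers and 1 of 2 sort markers (*Kit*). The part of these lists in the interaction of the 9 was not tested. Some of these markers passed the filter on low counts only through the treated *Tespa1*-/- libraries.

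To compare levels between genes, counts were divided by the library total and by merged exon length in kilobases (RPKM, with no TMM correction). In untreated *Tespa1*+/+ LSKs the order of levels was *Msi2* (36.9 ± 2.20, SD, n = 3), *Jmjd1c* (26.5 ± 0.807), *Meis1* (15.3 ± 1.04), *Gata2* (13.8 ± 0.943), *Hlf* (10.4 ± 1.73), *Myct1* (9.22 ± 1.57), *Ikzf2* (5.03 ± 0.333), *Mecom* (2.50 ± 0.109) and *Prdm16* (1.71 ± 0.265). The libraries of *Meis1* and *Gata2* overlapped, as did those of *Hlf* and *Myct1*, so these neighbours are not separated by their spread. In *Tespa1*-/- LSKs after 5-FU the order changed at the top, with *Gata2* at 27.7 ± 6.10 RPKM ahead of *Msi2* at 19.2 ± 0.262 RPKM. *Gata2* also stood higher in the order in the other groups. In treated *Tespa1*+/+ LSKs it was 2nd at 31.4 ± 3.57 RPKM, behind *Msi2* at 35.7 ± 0.340 RPKM. In untreated *Tespa1*-/- LSKs it was 3rd at 18.0 ± 2.36 RPKM. The deposited FPKM values use another length, the sum of distinct exons of all transcripts, which exceeds the merged exons for genes with many isoforms. *Mecom* was divided by 22327 bases where its merged exons cover 12427, whereas *Myct1* has 2845 bases by either definition. Ranked by deposited FPKM in untreated *Tespa1*+/+ LSKs, *Myct1* would be 3rd instead of 6th.

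The positions on GRCm38 are chr3:29951296-30548008 for *Mecom*, chr4:154316125-154636873 for *Prdm16*, chr11:90336536-90390895 for *Hlf*, chr11:18879817-19018985 for *Meis1* and chr6:88193891-88207032 for *Gata2*. *Ikzf2* lies at chr1:69531214-69687245, *Msi2* at chr11:88339382-88718513, *Myct1* at chr10:5593775-5606904 and *Jmjd1c* at chr10:67096125-67256326. *Myct1* and *Jmjd1c* share chromosome 10 with *Tespa1* and lie 124.7 and 63.1 Mb from it. Counts of *Meis1* are uncertain where 2 annotated genes share its exons: Gm37818 on the same strand shares 1029 bases and had 235 to 607 counts per library, and Gm16140 on the opposite strand shares 896 bases and had 35 to 105. *Jmjd1c* overlaps *Reep3* on the opposite strand with no shared exon bases. The other genes sharing exon bases with one of the 9 had at most 17 counts in a library.

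Related genes were described by lists. Of 19 other HSC transcription regulators, 5 were lower and 1 higher in *Tespa1*-/- LSKs after 5-FU, with a median log2 fold change of -0.264. *Etv6*, an ETS factor needed for HSC maintenance, was lower (-0.50, adjusted p = 0.000263, edgeR). *Foxo3* (-0.12, adjusted p = 0.384) and *Kmt2a* (-0.10, adjusted p = 0.473) did not pass. Of genes chosen after their values were seen, *Erg* (-0.48), *Runx1* (-0.34), *Lmo2* (-0.27) and *Hoxa9* (-0.54) were also lower, and *Gfi1*, a repressor that is also needed for granulocyte formation, was higher (1.27, adjusted p = 0.00411, edgeR). In untreated LSKs 1 of the 18 tested in this list was lower and none higher, and that one was *Erg* (-0.40, adjusted p = 0.00928, edgeR).

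Family relatives of the 9 were counted as well. Of 10 tested relatives, 1 was lower and 2 higher after 5-FU, namely *Dbp* (-0.78), a PAR bZIP relative of *Hlf*, *Gata1* (0.97), the erythroid and megakaryocyte relative of *Gata2*, and *Ikzf3* (4.24), the lymphoid relative of *Ikzf2*, all 3 named after their values were seen. The 3 most abundant relatives did not pass: *Ikzf1* (0.03, adjusted p = 0.829), *Kdm3a* (-0.20, adjusted p = 0.172) and *Kdm3b* (-0.07, adjusted p = 0.526), the last 2 being demethylases of the *Jmjd1c* family. Partners and targets of the 9 moved both ways, 3 lower and 1 higher of 12, with a median of 0.008. *Zfpm1*, the GATA cofactor FOG1, was higher (0.61, adjusted p = 0.00408, edgeR). *Syncrip*, an RNA-binding partner of MSI2, was lower by a smaller amount (-0.26, adjusted p = 0.0326, edgeR).

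Stem and progenitor cell markers were described in the same way. HSC markers were lower in *Tespa1*-/- LSKs after 5-FU for 3 of 9, with a median of -0.459. Among them, named after their values were seen, were *Fgd5* (-1.26, adjusted p = 0.00179, edgeR) and *Robo4* (-1.16, adjusted p = 0.00784, edgeR). *Tie1* (-0.15, adjusted p = 0.442) and *Ctnnal1* (-0.46, adjusted p = 0.161) did not pass. MPP markers were lower for 6 of 7 with a median of -0.426, among them *Flt3* (-0.90, adjusted p = 1.18e-05, edgeR), the receptor for FLT3 ligand.

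**Figure D4:**
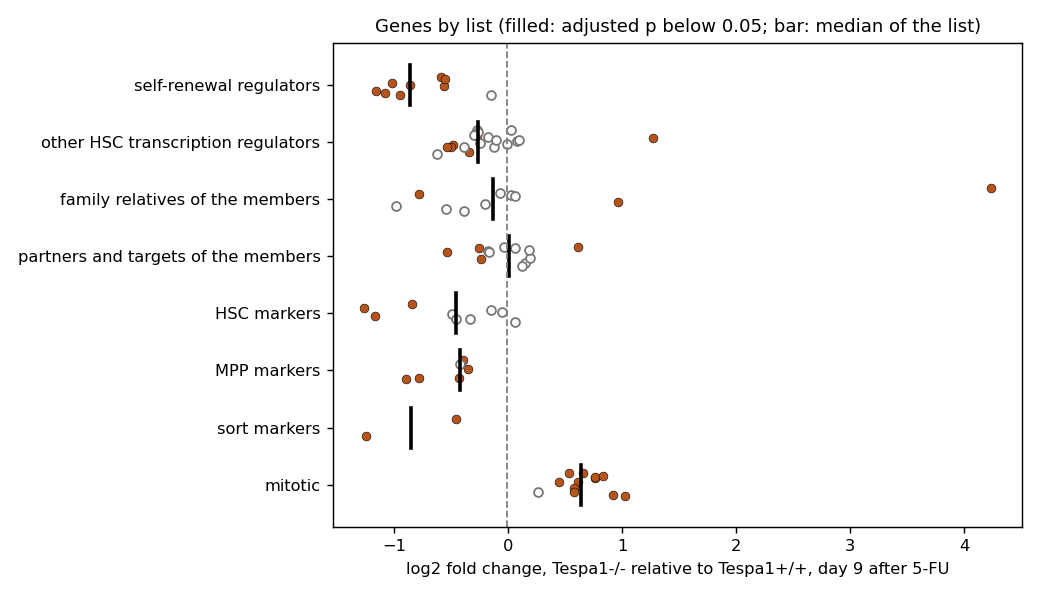
Log2 fold change of single genes (points) in *Tespa1*-/- relative to *Tespa1*+/+ LSKs at day 9 after 5-FU (x axis) for 8 lists (y axis). Filled points passed an adjusted p of 0.05, black bars are list medians and the dashed line is the median of all genes. The 9 regulators have a median of -0.865 and the mitotic genes one of 0.636.

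As a description, the genes whose levels followed each regulator most closely over the 12 libraries were found by Pearson correlation of log2(CPM + 1) among 14934 genes. The 12 libraries hold 4 groups, so these values mostly reflect the group means. *Msi2* was followed by *Rgs1* (r = 0.99) and *Cyp2j6* (r = 0.98), and *Jmjd1c* by *Cobll1* (r = 0.99) and *Peg13* (r = 0.98). *Mecom* was followed by *Ocrl* (r = 0.97) and *Slc12a2* (r = 0.96), *Hlf* by *Sgce* (r = 0.97) and *Dhx58* (r = 0.94), and *Myct1* by *Trafd1* and *Baz2b* (r = 0.97 for both). *Meis1* was followed by *Iigp1* (r = 0.95), *Prdm16* by *Mx1* (r = 0.94) and *Parp14* (r = 0.92), *Gata2* by *Gnb4* and Gm43422 (r = 0.94 for both), and *Ikzf2* by Gm16503 (r = 0.93) and *Zfp783* (r = 0.92). *Rgs1*, a regulator of G protein signalling, was at a mean of 265 and 153 CPM in untreated *Tespa1*+/+ and *Tespa1*-/- LSKs and at 222 and 91.6 CPM after 5-FU. *Mx1*, an interferon-induced GTPase, was at a mean of 25.3 CPM in untreated *Tespa1*+/+, 31.1 CPM in untreated *Tespa1*-/-, 62.2 CPM in treated *Tespa1*+/+ and 16.3 CPM in treated *Tespa1*-/- LSKs.

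The median coefficient of variation of the 9 genes was 5.91% (*Tespa1*+/+) and 6.64% (*Tespa1*-/-) before treatment. After 5-FU it was 9.76% and 11.3%, and *Hlf* reached 29.5% in the knockout. In the treated *Tespa1*-/- group replicate 1 was the highest library for 6 of the 9 genes (*Mecom*, *Hlf*, *Meis1*, *Msi2*, *Myct1* and *Jmjd1c*). Without it, 7 of the 9 were lower than in *Tespa1*+/+ LSKs, the call of *Ikzf2* being lost. Over all genes that fit called 665 of 18039 lower, against 996 of 17239 with all libraries.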

How the data were processed

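Poly-A RNA-seq was made from LSKs in 4 groups of 3 libraries, with paired-end sequencing (NovaSeq) from a stranded kit. The authors deposited 1 table of 53465 genes with raw counts per gene and FPKM values per library, on GRCm38. The submitters' processing notes name CASAVA 1.8, HISAT2, StringTie and edgeR without their roles. Whether counting used strand is not given in the sources used here. The deposited FPKM values were computed by the authors from the counts and a gene length, which equals the sum of distinct exons for 87.4% of 8525 genes checked (within 0.5 bases), so levels between genes were recomputed over merged exons of GENCODE M21. No sample column was left unmapped, and no row was blank or a total. Libraries were grouped by their labels. Replicates differed by more than sampling noise, so none was counted as a duplicate.

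The test of counts was that of edgeR 4.0.16 (R 4.3.3), after filterByExpr with a minimum count of 10, TMM factors, and the quasi-likelihood test with Benjamini-Hochberg adjustment over all genes that passed, within the 6 libraries of each comparison and, for the interaction, over all 12. A call is an adjusted p below 0.05. The study's thresholds (fold above 1.5, unadjusted p below 0.05) were a second rule. SEs were taken as the absolute log2 fold change over the square root of F. CPM used TMM factors over the 12 libraries. Alternatives were DESeq2 1.42.0, other scalings and filters, 1 fit of all libraries, a replicate block and leaving out each library. Fits were tested on simulated counts.

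The 9 genes and all lists were chosen with earlier results of these data known. Named genes are the 9, *Tespa1*, genes overlapping the 9, the 3 most abundant tested genes of each list and, for each of the 9, the 2 most correlated genes with a mean of at least 1 CPM. Others are said to be chosen after their values were seen. Some genes that this rule selects are not reported here.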

Additional observations from a re-analysis of the deposited data

Results flagged for a closer look

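The response to 5-FU differed between genotypes for 2 of the 9 genes by the interaction test of edgeR over 12 libraries. For *Msi2* the log2 response was lower by 0.41 in *Tespa1*-/- LSKs (-0.4059, SE 0.067, adjusted p = 0.00335), with all 3 treated *Tespa1*-/- libraries below the 3 untreated ones. The *Tespa1*+/+ libraries had the same order by a smaller margin, at 358.5 to 366.1 CPM treated and 369.3 to 406.2 CPM untreated. For *Prdm16* the difference was -0.9972 (SE 0.26, adjusted p = 0.047), with 9.01 to 15.2 CPM in treated and 13.9 to 17.5 CPM in untreated *Tespa1*-/- libraries. The *Msi2* call held in all 18 alternative fits and was lost when a fold above 1.5 was also required. The *Prdm16* call was lost in 12 of the 18 fits.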

How the results depend on the processing

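Of 630 alternative values of the 9 genes' fold changes, 570 kept their direction and their side of the threshold, 33 lost a call, 24 gained one and 3 changed sign. The cause was not tested. The sign changes were in untreated LSKs: *Prdm16* at 0.12 without *Tespa1*+/+ replicate 1 and 0.07 without *Tespa1*-/- replicate 3 (range -0.082 to 0.12), and *Ikzf2* at 0.0274 without *Tespa1*-/- replicate 1 (range -0.1217 to 0.0274). Counts of lower genes between genotypes were 2 in untreated LSKs when a fold above 1.5 was also required, with either p. DESeq2 called 1 gene higher there (*Gata2*), and 528 of all 17055 genes against 280 in the main fit. Requiring the fold left 0 genes lower with 5-FU in either genotype. Genes higher with 5-FU in *Tespa1*+/+ LSKs were 6 by DESeq2, 5 with library totals and 5 with at least 10 counts in every library. Over all 17002 genes the higher calls were 641 in the main fit, 1003 by DESeq2 and 765 with library totals. With at least 10 counts they were 693 of 14483. Library totals also moved the share of higher calls over all genes in that comparison from 47.4% to 58.2%, that for genotype after 5-FU from 55.9% to 49.4% and that of the interaction from 60.3% to 50.5%. The interaction count was 5 by DESeq2, 1 without a filter and 1 with the fold required. Over all 18696 genes, 372 had a more negative response in the main fit and 666 by DESeq2. Without a filter 336 of 40082 did, and with the fold required 290 of 18696. Leaving out 1 library gave 2 to 4 lower and 0 to 1 higher genes for genotype in untreated LSKs, 7 to 8 lower after 5-FU, 2 to 3 higher with 5-FU in *Tespa1*+/+, 1 to 2 higher in *Tespa1*-/- LSKs and 1 to 3 for the interaction. Over all genes, 17763 to 18157 tested, genotype gave 250 to 520 lower and 82 to 288 higher in untreated LSKs. After 5-FU it gave 665 to 714 lower. Treatment gave 370 to 521 higher in *Tespa1*+/+ and 1319 to 1624 higher in *Tespa1*-/- LSKs. The interaction was more negative for 219 to 378 of 19723 to 19975 genes. Correlations of deviations ran from -0.045 to 0.032 for same-numbered libraries and from -0.047 to 0.057 for different-numbered ones. Noise within each gene weighs on these values, so they cannot settle whether the numbers pair libraries. The labels do not say what a number marks. With a replicate block the interaction count was 1 (*Prdm16* adjusted p = 0.0705), and the block ended the calls of *Myct1* in untreated LSKs (adjusted p = 0.0987) and *Ikzf2* with 5-FU in *Tespa1*+/+ LSKs (adjusted p = 0.0971), while *Hlf* gained one there (adjusted p = 0.0133). With the block 287 of all 18696 genes had a more negative response in the interaction. Calls of *Msi2* and *Jmjd1c* between genotypes held in every alternative fit at an adjusted p below 0.05. With a fold above 1.5 also required, both were lost in untreated LSKs and *Jmjd1c* after 5-FU. The effect of depth was not tested. After 5-FU the SE between genotypes was 0.198 for *Prdm16* and 0.045 for *Msi2*, and with 3 libraries a group small differences may be missed.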
